A study of Mus musculus with 6 samples.

Results

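The transcription factor p53 is stabilized when DNA, ribosomes or nucleotides are disturbed, and then binds response elements near a set of target genes that halt the cell cycle, repair DNA, adjust metabolism or start apoptosis. Some targets, above all *Mdm2*, encode proteins that bring p53 back down, so that their mRNA is often read as a sign of p53 activity. In the epidermis p53 has a close relative, p63, which maintains basal keratinocytes and shares part of its binding sites. The 36 direct p53 targets examined here were chosen by name, for roles in feedback, arrest, apoptosis, repair and metabolism. All 36 were found among the 55536 genes listed and all 36 passed the filter on low counts that left 20622 genes for testing.

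The samples were basal keratinocytes of mouse dorsal skin at E16.5, sorted as cells positive for Epcam and integrin α6, with 3 Ctrl and 3 TKO libraries of bulk RNA-seq. All embryos were homozygous for floxed *Suv39h1* and *Setdb1*, lacked *Suv39h2* and were exposed to tamoxifen. TKO embryos also carried K14CreERT2, a recombinase made under the keratin 14 promoter that tamoxifen activates, so that they can also lose *Suv39h1* and *Setdb1*, which with *Suv39h2* encode methyltransferases that deposit H3K9me3, whereas Ctrl embryos had no recombinase. The study lists the litters used for this assay as mosaic, so a TKO library can mix recombined and other cells, and in bulk RNA fewer responding cells and less RNA per cell cannot be told apart. Ctrl replicate 1 and TKO replicate 2 were labelled female and the others male. Libraries held 102159175, 136515436 and 104422632 counts in Ctrl replicates 1 to 3, and 116308383, 108957256 and 118413082 counts in TKO replicates 1 to 3. Levels are given in CPM, library-size-scaled counts after TMM normalization, in which 3 counts amount to between 0.0232 and 0.0303 CPM. Wherever 3 levels are listed for a group they follow the order of replicates 1, 2 and 3.

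The libraries were first checked against their labels. *Setdb1* was at 125.5, 117.9 and 121.1 CPM in the Ctrl libraries and 95.3, 62.3 and 74.9 CPM in the TKO libraries, below Ctrl in every TKO library. *Suv39h1* overlapped between the groups, with 88.7, 78.5 and 84.0 CPM in the Ctrl libraries and 75.6, 68.9 and 89.4 CPM in the TKO libraries. *Suv39h2* lay between 15.6 and 18.9 CPM in all libraries although every embryo carried the null allele, and the counts span whole genes, not the altered exons alone, so they do not measure recombination. The basal keratin gene *Krt5* was the most abundant of 8 basal markers, with 12318, 12051 and 8179 CPM in the Ctrl libraries and 6994, 8037 and 9022 CPM in the TKO libraries. TKO replicate 2 lay farthest from the Ctrl libraries on the first principal component, at 46.2, against 23.7 for TKO replicate 1, 4.60 for TKO replicate 3 and between -29.4 and -16.9 for Ctrl. The first component held 38.0% of the variance and the second 29.0%. On the second, TKO replicate 3 lay farthest from Ctrl, at -50.2, with TKO replicate 2 at 15.3 and Ctrl between -1.56 and 27.7. TKO replicate 2 was thus not the only TKO library that stood apart. Several results on p53 targets are also given without TKO replicate 2, and where no such value stands beside a result it includes that library.

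Where the reference holds a promoter window, the sequence around the start site was searched for the p53 response element, which is a pair of half-sites, each built around a C and a G that enclose A or T letters. The element is palindromic, so a search of one strand covers both. The windows, from RefSeq on GRCm38.p6, run from 250 bases before to 50 bases after a start site and were given for 28 of the 36 genes. Allowing 2 mismatches over 20 positions, outside the fixed C and G, and a gap of at most 1 base, 6 of the 28 genes had a match, against 0.807% of the 27025 genes with a window. With 1 mismatch 3 genes had one, against 0.13%, and with 3 mismatches 11 genes, against 3.27%. The 6 matches are shown to let the letters be read beside the expression of the same genes. Capitals mark the match and lower case its flanks, read 5′ to 3′ on the strand of the gene, and the limit of 2 was set after the counts were seen.

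*Cdkn1a*, chr17:29090913-29090962, plus strand: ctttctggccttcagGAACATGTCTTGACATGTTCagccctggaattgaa
*Ccng1*, chr11:40755447-40755496, minus strand: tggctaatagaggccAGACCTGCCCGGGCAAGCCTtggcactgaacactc
*Gtse1*, chr15:85859930-85859979, plus strand: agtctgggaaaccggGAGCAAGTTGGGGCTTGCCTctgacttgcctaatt
*Bax*, chr7:45467064-45467114, minus strand: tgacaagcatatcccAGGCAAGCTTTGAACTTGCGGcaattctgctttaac
*Ckap2*, chr8:22185988-22186037, minus strand: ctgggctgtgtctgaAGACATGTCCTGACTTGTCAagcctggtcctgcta
*Trp73*, chr4:154097205-154097254, minus strand: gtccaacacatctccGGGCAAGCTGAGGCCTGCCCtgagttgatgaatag

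The first 3 had 1 mismatch and the others 2. The match began 51 bases before one of the start sites of *Cdkn1a*, 195 before that of *Ccng1*, 201 before that of *Bax* and 203 before that of *Ckap2*. It began 66 bases before a start site of *Trp73* and 1 base before one of *Gtse1*, so that it crosses the start. A match is a likeness of letters and does not show binding, and targets whose element lies in an intron or farther away, as is known for *Mdm2*, cannot show one in this window.

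In Ctrl basal cells the targets already differed widely in level. Per kilobase of exon, *Perp*, a desmosome-associated membrane protein that p63 also drives in stratified epithelia, stood at 763 CPM per kilobase in Ctrl, far above the next, *Ddit4*, an inhibitor of mTORC1 signalling, at 60.0 CPM per kilobase. *Ckap2*, *Phlda3*, *Btg2*, *Sesn2*, *Ei24*, *Trp73*, *Cdkn1a*, *Ccng1* and *Trp53inp1* lay between 10.4 and 19.6 CPM per kilobase. At the lower end were *Fas* at 0.763, *Rrm2b* at 0.702, *Ak1* at 0.223, *Eda2r* at 0.205 and *Gdf15* at 0.0545 CPM per kilobase. *Gdf15*, a secreted stress cytokine, had at most 19 counts in any library.

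TKO was compared with Ctrl to ask whether these genes respond to loss of *Suv39h1* and *Setdb1* in cells that already lack *Suv39h2*, and the presence of the recombinase itself cannot be told apart from that loss. Many p53 targets were higher in TKO, strongly in TKO replicate 2, less in TKO replicate 1 and least in TKO replicate 3, and no single one passed the adjusted threshold of the main test. In edgeR's quasi-likelihood test genes counted as called when the adjusted p-value was below 0.05 and the level changed more than 1 on the log2 scale. By this rule 0 of 36 members were called, against 0.131% of all genes tested. DESeq2 called 4, all higher, against 0.936% of all genes called higher and 0.102% called lower, and the same 4 passed its adjusted p-value at any fold, against 1.07%. At an unadjusted p-value under 0.05, 19 of 36 (52.8%) were higher in TKO and 0 were lower, against 4.06% higher and 2.02% lower among all genes tested. In 16 of 36 (44.4%) every TKO library exceeded every Ctrl library, and in 1 (*Xpc*) every TKO library was below, against 6.35% and 5.11% of all genes tested. The median log2 fold change of the 36 was 0.47, against 0.01 for all genes tested, and 30 of the 36 were positive, against 51.9%. Without TKO replicate 2, 11 of 36 were higher at an unadjusted p-value under 0.05, against 1.82% of the genes in that fit, and the median was 0.23. With TKO replicate 3 left out instead, the median was 0.64.

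**Figure D1:**
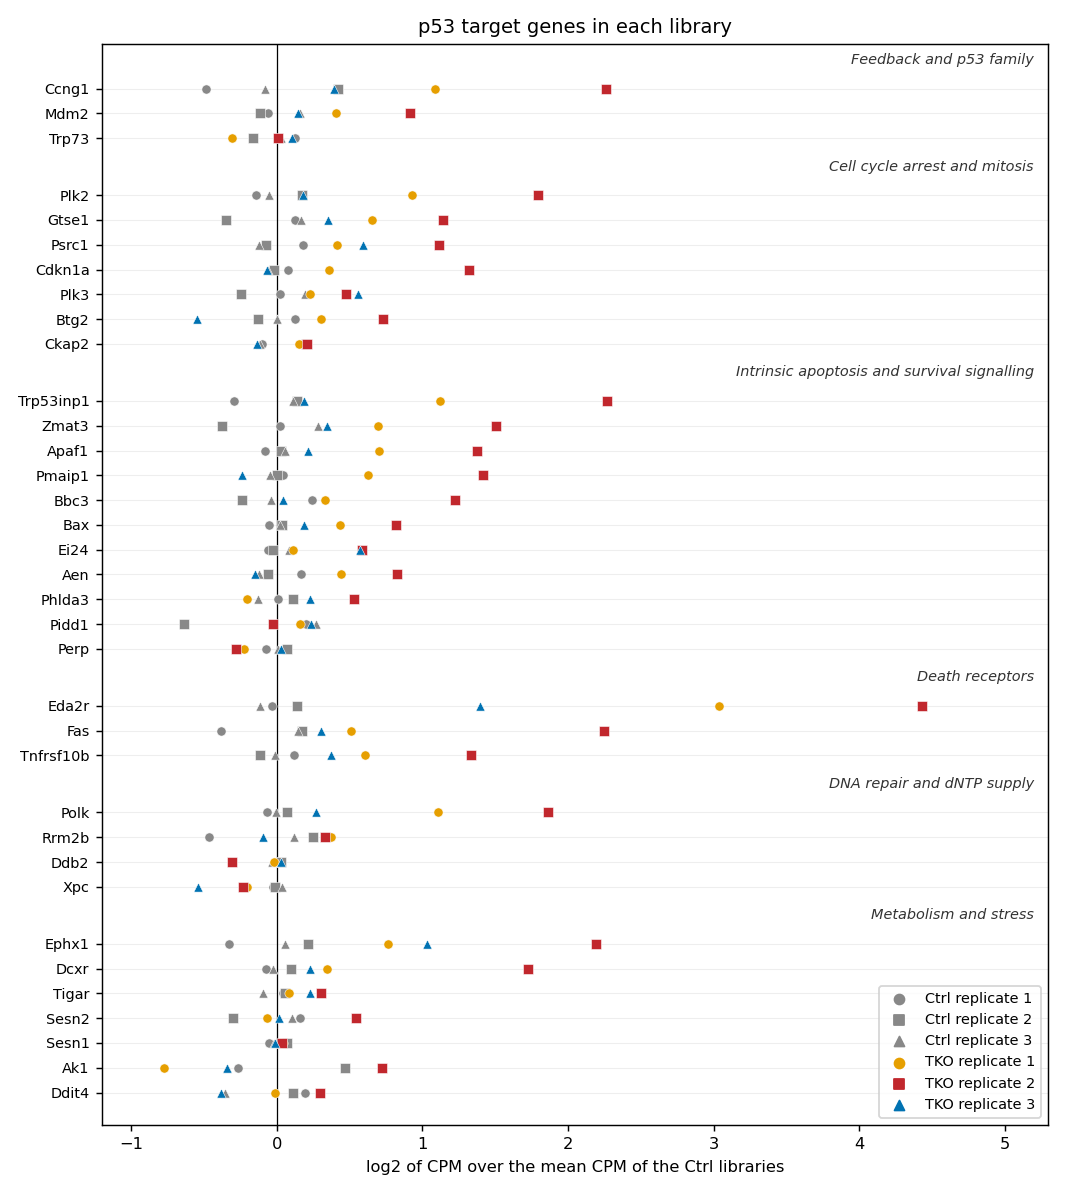
Each row is one p53 target, grouped by role, and each point one library, placed on the horizontal axis by the log2 of its CPM over the mean CPM of the 3 Ctrl libraries (grey, Ctrl; orange, red and blue, TKO replicates 1, 2 and 3). *Gdf15* is left out because it had no count in one library. TKO replicate 2 was the highest library in 27 of the 36 genes.

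The 3 TKO libraries differed in how far the targets stood from Ctrl. The median target was 0.82 above the Ctrl mean on the log2 scale in TKO replicate 2, 0.35 above it in TKO replicate 1 and 0.18 above it in TKO replicate 3, while the Ctrl libraries lay between -0.03 and 0.03. TKO replicate 2 exceeded every Ctrl library in 29 of the 36 targets, against 26.9% of all genes tested. TKO replicate 1 did so in 24, against 25% of all genes, and TKO replicate 3 in 18, against 29.2%. In the opposite direction, 6, 3 and 9 of the 36 targets were below every Ctrl library in TKO replicates 1, 2 and 3, against 25%, 23.4% and 27.2% of all genes tested, so that for TKO replicate 3 the share below was near that of all genes. TKO replicate 2 was the highest of the 6 libraries in 27 of 36 targets (75%), against 17.4% of all genes tested, and in 20 of 36 the TKO libraries fell in the order 2, 1, 3 from highest to lowest, against 19.2%. Of the TKO libraries, replicate 2 had the lowest and replicate 1 the highest *Setdb1*, in whole-gene counts that do not measure recombination. TKO replicate 2 is female, as is Ctrl replicate 1, in which the median target was at -0.03. The part of *Setdb1* level or of sex in the order of the TKO libraries was not tested. With sex as a factor 16 of 36 targets were higher at an unadjusted p-value under 0.05, against 3.29% of all genes tested in that fit.

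Among the feedback genes, *Ccng1* showed the larger difference. It encodes cyclin G1, which recruits a phosphatase to Mdm2, and was at 42.4, 79.4 and 56.2 CPM in the Ctrl libraries and 126.2, 284.8 and 77.8 CPM in the TKO libraries. TKO replicate 3 fell within the Ctrl range, so the groups overlapped, and the log2 fold change was 1.46 (standard error, SE, 0.444; edgeR's quasi-likelihood adjusted p = 0.528). It was 0.78 without TKO replicate 2. *Mdm2*, the ubiquitin ligase that targets p53 for degradation, measured 38.8, 37.2 and 45.2 CPM in the Ctrl libraries and 53.5, 76.2 and 44.8 CPM in the TKO libraries. Here too TKO replicate 3 was inside the Ctrl range, and the log2 fold change was 0.53 (SE 0.197, edgeR adjusted p = 0.715), or 0.28 without TKO replicate 2. *Trp73*, the gene of the p53 relative p73, averaged 75.9 ± 7.62 CPM (Ctrl) and 73.1 ± 10.5 CPM (TKO) (SD, n = 3).

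All 7 genes of cell cycle arrest and mitosis had a positive log2 fold change, against 51.9% of all genes tested, with a median of 0.66. Of the 7, 5 were higher at an unadjusted p-value under 0.05, against 4.06% of all genes tested. Without TKO replicate 2 the median was 0.40 and 3 of the 7 had such a p-value, against 1.82% of the genes in that fit. *Plk2*, a polo-like kinase of the stress response, measured 42.3, 52.6 and 44.9 CPM in the Ctrl libraries and 88.7, 161.8 and 52.7 CPM in the TKO libraries. The lowest TKO library exceeded the highest Ctrl library by a narrow margin, and the log2 fold change of 1.12 (SE 0.333) had adjusted p-values of 0.459 by edgeR and 0.0385 by DESeq2. The log2 fold change of *Plk2* was 0.60 without TKO replicate 2. *Cdkn1a*, which encodes the cyclin-dependent kinase inhibitor p21, measured 86.0, 80.5 and 78.2 CPM in the Ctrl libraries and 104.5, 203.4 and 77.9 CPM in the TKO libraries. The level over the Ctrl mean was 2.49 times in TKO replicate 2 and 0.956 times in TKO replicate 3. The log2 fold change of *Cdkn1a* was 0.66 (SE 0.292, edgeR adjusted p = 0.813), and without TKO replicate 2 it was 0.16.

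*Gtse1* and *Psrc1*, which encode proteins that bind microtubules, did not overlap between the groups. *Gtse1* measured 23.9, 17.2 and 24.6 CPM in the Ctrl libraries and 34.4, 48.3 and 28.0 CPM in the TKO libraries, a log2 fold change of 0.75, or 0.51 without TKO replicate 2. *Psrc1* measured 30.6, 25.8 and 24.8 CPM in the Ctrl libraries and 36.1, 58.7 and 40.8 CPM in the TKO libraries, a log2 fold change of 0.74, or 0.50 without TKO replicate 2. *Plk3*, another polo-like kinase, had a log2 fold change of 0.43 with groups apart, and was highest in TKO replicate 3, at 31.2 CPM. *Btg2*, an antiproliferative cofactor of mRNA decay, spread from 68.7 to 166.5 CPM within TKO, on both sides of the Ctrl range of 91.8 to 109.3 CPM. *Ckap2*, a spindle protein with a response element match, averaged 63.5 ± 8.04 CPM (Ctrl) and 67.2 ± 8.24 CPM (TKO) (SD, n = 3).

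**Figure D2:**
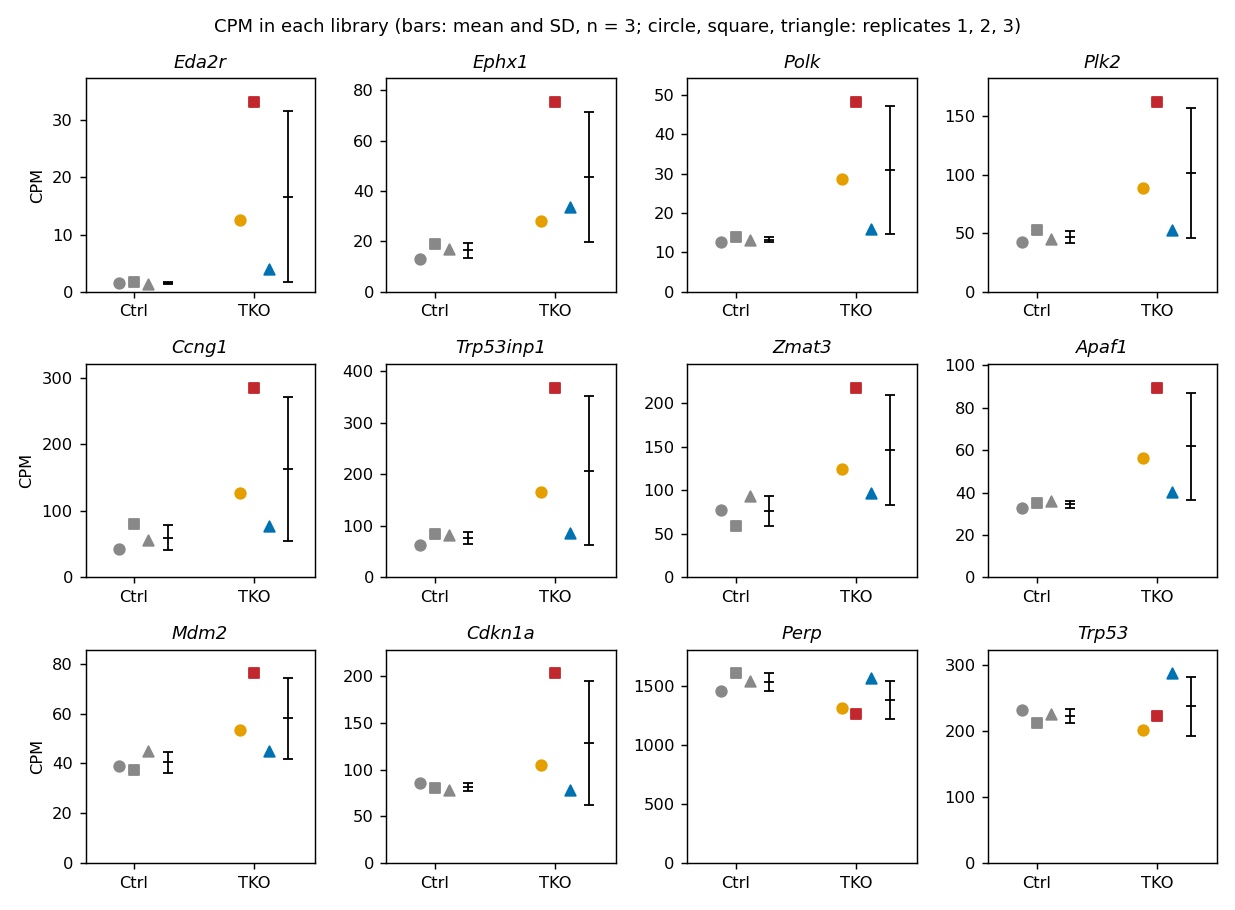
CPM of 11 p53 targets and of *Trp53* in each library, with Ctrl in grey and TKO replicates 1, 2 and 3 in orange, red and blue, and the mean and SD of each group (n = 3) beside the points. For *Eda2r* the TKO libraries sit at 12.6, 33.2 and 4.05 CPM, all above Ctrl, whereas for *Cdkn1a* and *Mdm2* TKO replicate 3 sits among or below the Ctrl libraries.

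Of the 11 genes of intrinsic apoptosis and survival signalling, 10 had a positive log2 fold change, against 51.9% of all genes tested. The median was 0.50, and 6 were higher at an unadjusted p-value under 0.05, against 4.06% of all genes tested. The median was 0.26 and 3 of the 11 had such a p-value without TKO replicate 2, against 1.82% of the genes in that fit. *Trp53inp1*, a nuclear and autophagy protein that promotes p53-dependent death, measured 62.4, 84.2 and 82.6 CPM in the Ctrl libraries and 166.5, 368.4 and 86.9 CPM in the TKO libraries. Its log2 fold change was 1.44 (SE 0.446, adjusted p = 0.552 by edgeR and 0.424 by DESeq2), and TKO replicate 3 cleared the highest Ctrl library only narrowly. *Zmat3*, an RNA-binding splicing regulator, measured 77.5, 59.0 and 93.0 CPM in the Ctrl libraries and 124.0, 217.7 and 97.2 CPM in the TKO libraries. Its groups were apart, with a log2 fold change of 0.94. *Apaf1*, the scaffold of the apoptosome, was steady in Ctrl, at 32.6, 35.2 and 35.8 CPM, and at 56.1, 89.5 and 40.1 CPM in TKO, a log2 fold change of 0.84 (SE 0.2504, edgeR adjusted p = 0.451). These log2 fold changes were 0.73 for *Trp53inp1*, 0.53 for *Zmat3* and 0.48 for *Apaf1* without TKO replicate 2.

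The BH3-only and pore-forming genes act at the mitochondrion. *Pmaip1*, which encodes Noxa, measured 23.6, 22.9 and 22.1 CPM in the Ctrl libraries and 35.2, 61.1 and 19.4 CPM in the TKO libraries, so TKO replicate 3 was below every Ctrl library. *Bbc3*, which encodes Puma, measured 7.23, 5.19 and 5.95 CPM in the Ctrl libraries and 7.70, 14.3 and 6.31 CPM in the TKO libraries, with overlapping groups. *Bax*, the pore-forming effector, measured 7.90, 8.39 and 8.30 CPM in the Ctrl libraries and 11.1, 14.4 and 9.32 CPM in the TKO libraries, with groups apart and a log2 fold change of 0.50. The log2 fold changes of *Pmaip1*, *Bbc3* and *Bax* were 0.75, 0.63 and 0.50 with all libraries and 0.26, 0.19 and 0.31 without TKO replicate 2. *Ei24*, a membrane protein of the endoplasmic reticulum, also had groups apart (log2 fold change of 0.44), and TKO replicates 2 and 3 were alike, at 152.5 and 151.1 CPM. *Aen*, an apoptosis-enhancing nuclease (0.43), *Phlda3*, a repressor of Akt (0.21), and *Pidd1*, a scaffold for caspase-2 (0.12), had overlapping groups, the values being log2 fold changes. For *Aen* and *Phlda3* these were 0.17 and 0.02 without TKO replicate 2. *Perp*, the most abundant target, measured 1452, 1603 and 1536 CPM in the Ctrl libraries and 1308, 1261 and 1559 CPM in the TKO libraries, a log2 fold change of -0.15 (SE 0.1505).

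The 3 death receptor genes had every TKO library above the highest Ctrl library, against 6.35% of all genes tested. Each was higher at an unadjusted p-value under 0.05, against 4.06% of all genes tested, and their median log2 fold change was 1.30. Without TKO replicate 2 the median was 0.49. *Eda2r* and *Tnfrsf10b*, but not *Fas*, then had such a p-value, against 1.82% of the genes in that fit. *Eda2r*, an X-linked receptor of the TNF receptor family for the ectodysplasin isoform EDA-A2, had the largest fold change of all 36 genes. It measured 1.50, 1.69 and 1.42 CPM in the Ctrl libraries and 12.6, 33.2 and 4.05 CPM in the TKO libraries, which is 8.21, 21.6 and 2.63 times the Ctrl mean. The log2 fold change was 3.43 (SE 0.643; edgeR adjusted p = 0.148; DESeq2 adjusted p = 0.00279). The female Ctrl library lay between the male ones, and without TKO replicate 2 the log2 fold change was 2.44 (edgeR adjusted p = 0.172). *Tnfrsf10b*, the mouse TRAIL receptor, measured 16.1, 13.7 and 14.8 CPM in the Ctrl libraries and 22.6, 37.5 and 19.3 CPM in the TKO libraries, a log2 fold change of 0.83 that became 0.49 without TKO replicate 2. *Fas* measured 1.35, 1.997 and 1.96 CPM in the Ctrl libraries and 2.52, 8.39 and 2.18 CPM in the TKO libraries, and its log2 fold change of 1.30 became 0.41 without TKO replicate 2.

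Genes of DNA repair and nucleotide supply differed in direction. *Polk*, the translesion polymerase kappa, measured 12.7, 13.9 and 13.2 CPM in the Ctrl libraries and 28.6, 48.2 and 16.0 CPM in the TKO libraries. Its log2 fold change was 1.22 (SE 0.325), with adjusted p-values of 0.342 by edgeR and 0.0149 by DESeq2, and was 0.75 without TKO replicate 2. *Xpc*, the damage sensor of nucleotide excision repair, was instead lower in every TKO library, with 25.9, 26.2 and 27.1 CPM in the Ctrl libraries and 22.9, 22.5 and 18.1 CPM in the TKO libraries, a log2 fold change of -0.32 (SE 0.1502, edgeR unadjusted p = 0.0609). *Ddb2*, its partner in damage recognition, averaged 16.0 ± 0.358 CPM (Ctrl) and 15.1 ± 1.84 CPM (TKO), and *Rrm2b*, the ribonucleotide reductase subunit that p53 induces, averaged 6.90 ± 1.69 and 8.02 ± 1.35 CPM (SD, n = 3).

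In the metabolic and stress group 2 of 8 genes, *Ephx1* and *Dcxr*, were higher at an unadjusted p-value under 0.05, against 4.06% of all genes tested. Only *Ephx1* was so without TKO replicate 2, against 1.82% of the genes in that fit. Both *Ephx1* and *Dcxr* encode enzymes that handle reactive carbonyls or epoxides. *Ephx1*, microsomal epoxide hydrolase, measured 13.1, 19.1 and 17.2 CPM in the Ctrl libraries and 28.0, 75.3 and 33.6 CPM in the TKO libraries. Its groups were well apart, and the log2 fold change of 1.47 (SE 0.339) had adjusted p-values of 0.223 by edgeR and 0.00129 by DESeq2. Without TKO replicate 2 it was 0.90, and the median of the 8 genes, 0.11 with all libraries, was -0.01. *Dcxr*, a carbonyl and xylulose reductase, measured 12.1, 13.6 and 12.5 CPM in the Ctrl libraries and 16.1, 42.0 and 14.9 CPM in the TKO libraries, so that most of its log2 fold change of 0.93 came from TKO replicate 2 and 0.28 was left without it. *Tigar*, a fructose bisphosphatase, had groups apart but a log2 fold change of only 0.21. The sestrins *Sesn1* and *Sesn2*, with *Ddit4* and *Ak1*, had overlapping groups and log2 fold changes between -0.01 and 0.19. *Gdf15* had only 12, 19 and 11 counts in Ctrl and 0, 14 and 6 in TKO. Its log2 fold change was -1.07 (SE 1.21, edgeR unadjusted p = 0.399), or -2.27 without TKO replicate 2, and the groups overlapped.

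**Figure D3:**
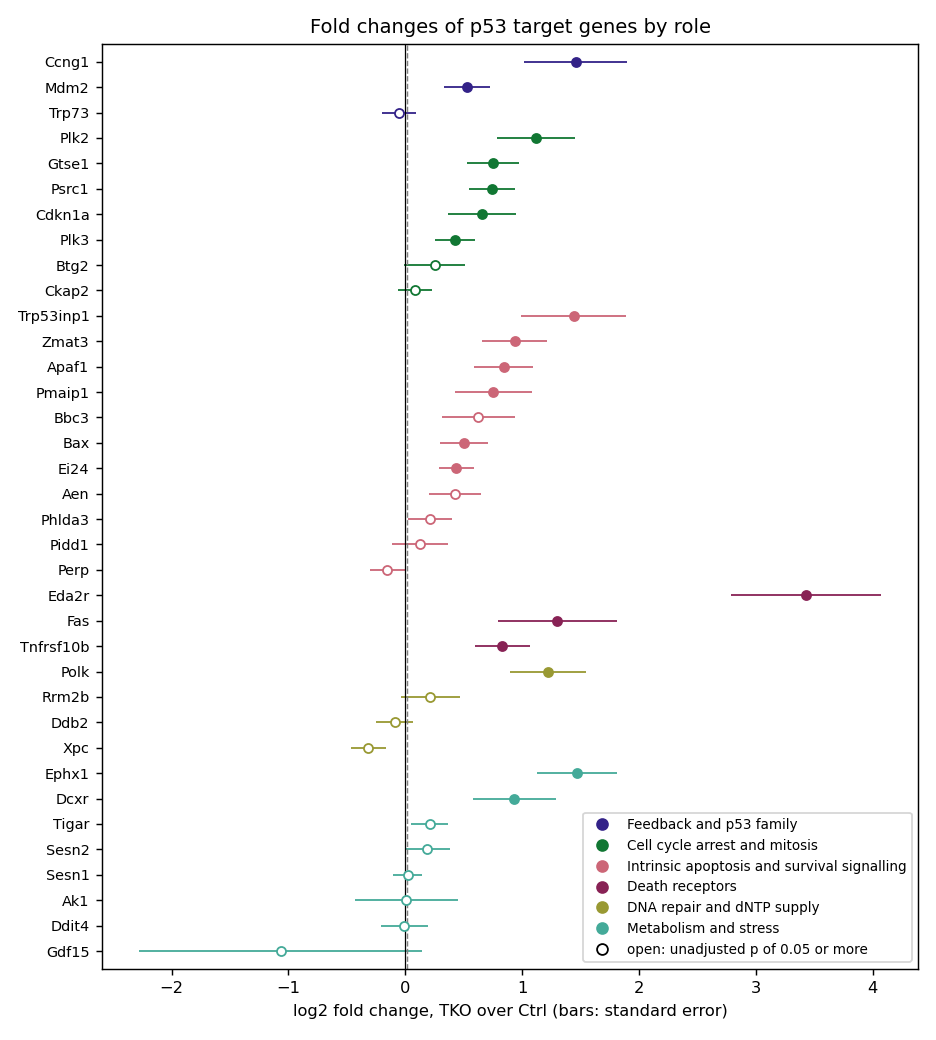
Log2 fold change of TKO over Ctrl for each of the 36 p53 targets from edgeR, with its standard error, coloured by role. Filled points had an unadjusted p-value under 0.05, and the dashed line is the median of all genes tested, 0.01. The 19 filled points all lie to the right of 0, with *Eda2r* farthest out at 3.43.

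Of the 6 genes with a response element match, *Ccng1*, *Gtse1*, *Cdkn1a* and *Bax* had higher levels in TKO with unadjusted p-values below 0.05, at log2 fold changes of 1.46, 0.75, 0.66 and 0.50, while *Ckap2* and *Trp73* were at 0.08 and -0.05. This share is near that of all members, 52.8%, and *Cdkn1a* and *Bax* no longer had such a p-value when TKO replicate 2 was left out. Of the members, 18 share exon sequence with a gene on the other strand in GENCODE vM39, among them *Ccng1*, *Cdkn1a*, *Polk* and *Ephx1*, and the strand setting of the counting is not given. Where the partner was tested its own log2 fold change was small for *Nudcd2* beside *Ccng1* (0.02), *Cert1* beside *Polk* (0.19) and *Tmem63a* beside *Ephx1* (0.31), and was -1.07 for *Gm12522* beside *Psrc1*. Of the 18 members without such a partner, 10 were higher at an unadjusted p-value under 0.05, against 4.06% of all genes tested, and 7 without TKO replicate 2, against 1.82%.

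The genes that control p53 were compared in the same libraries. *Trp53* itself measured 232.0, 211.3 and 225.8 CPM in the Ctrl libraries and 200.8, 222.4 and 287.0 CPM in the TKO libraries, a log2 fold change of 0.09 (SE 0.157), and its highest library was TKO replicate 3, the TKO library with the lowest median of the 36 targets. *Mdm4*, a second inhibitor of p53, averaged 158.2 ± 4.28 CPM (Ctrl) and 172.3 ± 37.3 CPM (TKO), and *Trp63*, which encodes p63, averaged 892.0 ± 104.2 and 943.5 ± 150.2 CPM (SD, n = 3). *Cdkn2a*, whose Arf product blocks Mdm2, had 8, 4 and 6 counts in Ctrl and 0 in each TKO library, and was not tested. Of the 21 regulators and kinases listed 20 were tested, of which 1, *Pml*, the organizer of nuclear bodies, was higher at an unadjusted p-value under 0.05 (log2 fold change of 0.35) and 0 were lower, a share near the 4.06% and 2.02% of all genes tested.

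Beyond the 36 genes, 25 other p53 targets were listed by name. Of these 6 were higher at an unadjusted p-value under 0.05 and 0 were lower, against 4.06% and 2.02% of all genes tested, with a median log2 fold change of 0.18, and none was called by edgeR. Without TKO replicate 2 the median was 0.11 and 3 of the 25 were higher at such a p-value, against 1.82% of the genes in that fit. *Cpt1c*, a brain-type carnitine palmitoyltransferase, measured 2.25, 2.10 and 3.22 CPM in the Ctrl libraries and 17.1, 47.3 and 6.20 CPM in the TKO libraries, a log2 fold change of 3.22 (SE 0.657) with adjusted p-values of 0.191 by edgeR and 0.00503 by DESeq2. *Zfp365*, a zinc finger gene linked to genome stability, measured 1.68, 3.51 and 1.61 CPM in the Ctrl libraries and 9.17, 28.1 and 4.07 CPM in the TKO libraries. Its log2 fold change of 2.60 had adjusted p-values of 0.313 by edgeR and 0.106 by DESeq2. *Dglucy*, a glutamate cyclase, measured 0.808, 2.48 and 2.01 CPM in the Ctrl libraries and 6.47, 15.9 and 3.60 CPM in the TKO libraries, with adjusted p-values of 0.288 by edgeR and 0.000817 by DESeq2. These 3 genes stood in the same order of TKO libraries as *Eda2r*, with replicate 2 highest and replicate 3 lowest, and without replicate 2 the log2 fold changes of *Cpt1c*, *Zfp365* and *Dglucy* were 2.21, 1.55 and 1.51. *Def6* and *Abhd4* were also among the 6, with log2 fold changes of 0.47 and 0.46. Without TKO replicate 2 these were 0.25 and 0.28, and neither gene had an unadjusted p-value under 0.05.

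**Figure D4:**
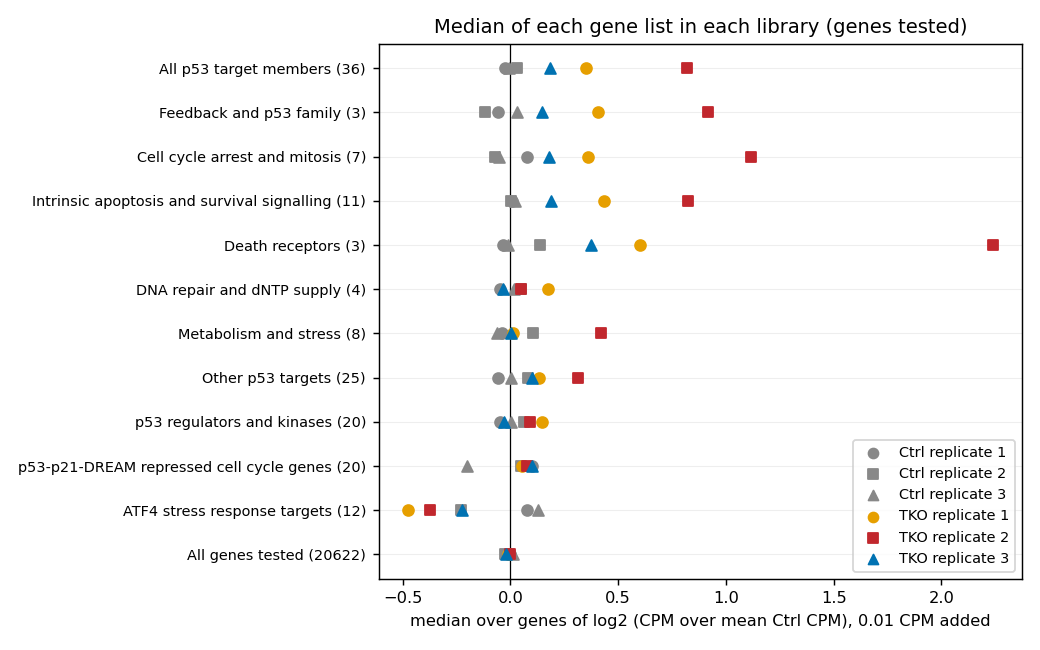
Median over the tested genes of each list of the log2 ratio of CPM to the Ctrl mean (0.01 CPM added to both), one point per library, with the number of genes in brackets. The p53 targets separate the TKO libraries at 0.82, 0.35 and 0.18, while in the TKO libraries the medians of regulators, of cell cycle genes and of all genes tested lie between -0.03 and 0.15.

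The p21 protein acts through the DREAM complex to repress genes of DNA replication and mitosis, such as cyclins B and A and their kinase. Of 20 such genes 0 were higher and 0 were lower at an unadjusted p-value under 0.05, near the 4.06% and 2.02% of all genes tested, and their median log2 fold change was 0.08. Their medians in TKO replicates 1, 2 and 3 were 0.05, 0.08 and 0.10 over the Ctrl mean on the log2 scale, and those of the Ctrl libraries ran from -0.20 to 0.10.

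**Figure D5:**
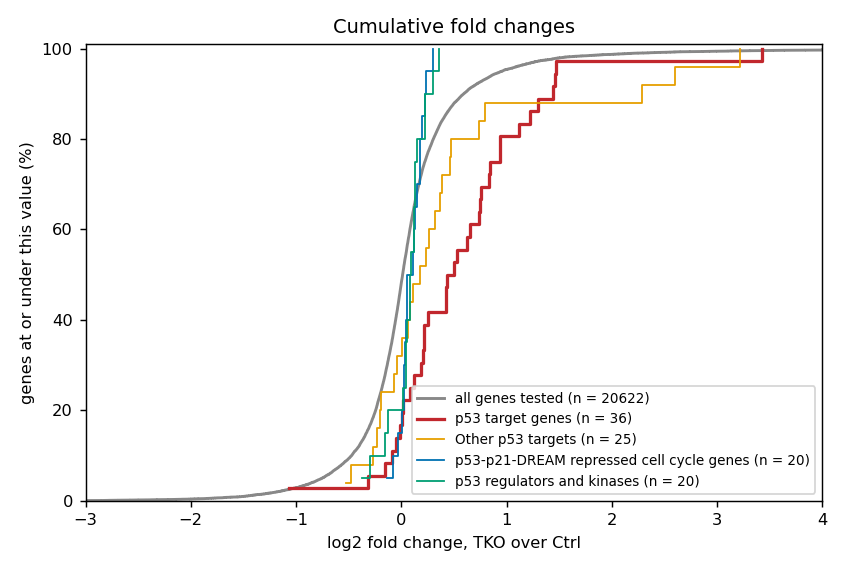
Share of genes (vertical axis, percent) with a log2 fold change at or under the value on the horizontal axis, for all 20622 genes tested, the 36 p53 targets, 25 other p53 targets, 20 tested regulators and 20 cell cycle genes repressed through p21. The curve of the 36 targets lies to the right of all genes tested over most of its length, with medians of 0.47 and 0.01.

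Cell type markers were compared in the same libraries. The 8 basal markers summed to 24329, 24101 and 18108 CPM in Ctrl and to 15025, 16826 and 19231 CPM in TKO, so that TKO replicates 1 and 2, which had the higher medians of p53 targets, were below every Ctrl library in this sum. The sum weighs the abundant *Krt5* most. By gene, 4 of the 8 had positive and 4 negative log2 fold changes, with a median of -0.002. The summed level of 5 immune markers, with *Cd68* the most abundant, was 24.3 CPM in TKO replicate 2 and between 7.08 and 14.2 CPM in the other 5 libraries. That of 4 endothelial markers, led by *Cdh5*, was 59.1 CPM in TKO replicate 2, 48.8 CPM in TKO replicate 3 and between 23.9 and 36.6 CPM in the rest. The 6 fibroblast markers, led by *Col1a1*, summed to 2162, 2564 and 2807 CPM in TKO replicates 1 to 3, inside the Ctrl range of 1203 to 3358 CPM. No marker of these 3 lists was at 0 in all libraries. The 6 skeletal muscle markers, led by *Ttn*, summed to 28.1, 28.6 and 29.4 CPM in TKO replicates 1 to 3 and to at most 10.05 CPM in Ctrl, of which *Ttn* alone made up 26.1, 22.1 and 20.9 CPM in TKO. The median over the 6 markers was 0.09, 1.59 and 1.64 above the Ctrl mean on the log2 scale in TKO replicates 1, 2 and 3. The part of the basal, immune, endothelial and muscle markers in the p53 target result was not tested. The 7 markers of differentiating keratinocytes, led by *Krt1*, summed to 16836, 12709 and 13507 CPM in TKO replicates 1 to 3 against 19098, 18883.5 and 20712 CPM in Ctrl. By gene, 2 of the 7 had positive and 5 negative log2 fold changes, with a median of -0.05. In 2 every TKO library was below every Ctrl library, against 5.11% of all genes tested. The summed levels of the 5 melanocyte and 4 erythroid markers, led by *Mitf* and *Hba-a1*, overlapped between the groups. The share of counts in the 3 most abundant identifiers was 10.1% in TKO replicate 2, inside the range of 5.65% to 13.2% over all libraries.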

How the data were processed

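Basal keratinocytes were profiled by rRNA-depleted, paired-end bulk RNA-seq. The authors trimmed reads with fastp, aligned them with STAR and deposited a table of raw, unnormalized counts with Ensembl identifiers as rows. The submitters' notes name GRCm38 and the methods GRCm39, and the counting program, annotation and strand setting are not given in the sources used here. Symbols, exon lengths and overlaps came from GENCODE vM39, which held 51477 of 55536 genes. Promoter windows came from RefSeq (GRCm38.p6).

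The main test was that of edgeR 4.0.16 in R 4.3.3 (filterByExpr with minimum count 10 and total 15, TMM, robust glmQLFit, glmQLFTest, two-sided) over 20622 genes with Benjamini-Hochberg adjustment, with calls at adjusted p-values below 0.05 and log2 fold changes beyond 1 in size. The study's tool, DESeq2 (here 1.42.0), was an alternative. CPM values and p-values were computed here, with 3 libraries per group. The labels do not say that replicates came from separate litters, so p-values measure the spread between these samples. The floor of 3 counts covers counting error only. Members and gene lists were chosen with earlier results of these data known. Named genes are all members, the p53, p63, Mdm4 and Cdkn2a genes, list genes with an unadjusted p-value under 0.05 and the most abundant marker of each cell type. *Setdb1*, *Suv39h1*, *Suv39h2* and the antisense partners were named after their values were seen. Some genes that these rules would name are not reported here. Scripts were tested on simulated counts. Figures were drawn with matplotlib 3.10.9 in Python 3.11.15.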

Additional observations from a re-analysis of the deposited data

How the results depend on the processing

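The calls depended on the tool and the filter. Genes called numbered 27 by edgeR (all higher), 214 by DESeq2 (193 higher; 259 and 220 with no fold threshold), 235 with no low-count filter (213 higher), 9 with at least 10 counts in every library (9 higher) and 7 to 81 with one library left out (7 to 65 higher). Members called numbered 0 in edgeR, 4 in DESeq2 with or without the fold threshold (*Eda2r*, *Ephx1*, *Polk* and *Plk2*), 3 with no low-count filter, and 0 to 3 with one library left out, the 3 being those without TKO replicate 3 (*Eda2r*, *Polk* and *Plk2*). The cause was not tested. Leaving out the low-count filter also moved the median of all genes to -0.11. It brought 11 members under an edgeR adjusted p-value of 0.05 at any fold. The share of all genes under it in that fit was not computed, so this count cannot be set against one. Members higher at an unadjusted p-value under 0.05 numbered 19, against 4.06% of all genes tested. With one library left out they numbered 11 to 21 (11 without Ctrl replicate 1, 12 without Ctrl replicate 2 and 11 without TKO replicate 2). Of the left-out fits the share of all genes was computed only without TKO replicate 2, at 1.82%. The other counts therefore cannot be told apart from a change over all genes. A replicate block gave 45 called genes, 44 of them higher, and 0 members, with *Ephx1* at an adjusted p-value of 0.0506 in edgeR. Of the other listed p53 targets *Zfp365* was called under the block (log2 fold change of 2.28, edgeR adjusted p = 0.0325). The labels share replicate numbers, and same-numbered libraries also carry adjacent sample numbers in the column headers of the counts. Neither states a shared litter or batch. Deviations of same-numbered libraries correlated at 0.168, 0.0873 and 0.127, against -0.161 to 0.0398 for others. Every library correlated best with its own number. The deviations were taken from the mean of each group, so these small correlations depend on each other and cannot decide whether libraries were paired. Pairing is not a stated design.

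Of 503 recomputed member values 19 changed sign, in 8 genes near 0. With one library left out the log2 fold change ranged from -0.14 to 0.051 for *Trp73*, -0.061 to 0.53 for *Btg2*, -0.11 to 0.28 for *Pidd1*, -0.16 to 0.0041 for *Ddb2*, -0.0049 to 0.057 for *Sesn1*, -0.027 to 0.29 for *Sesn2*, -0.19 to 0.15 for *Ddit4* and -0.55 to 0.31 for *Ak1*. *Sesn1* was at -0.013 with no low-count filter and at -0.0062 without the 3 identifiers with most counts, an alternative added after the data were seen, as was DESeq2 with no fold threshold. *Ak1* was at -0.034, -0.079, -0.12 and -0.023 with no low-count filter, the replicate block, sex as a factor and without those identifiers. The median over the 36 members stayed between 0.23 and 0.64 in all alternatives, lowest without TKO replicate 2.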

Other observations

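Several p53 targets, among them *Sesn2*, *Ddit4*, *Gdf15*, *Bbc3* and *Pmaip1*, can also be induced by ATF4, the transcription factor of the integrated stress response. Of 12 genes of that response 3 had lower and 1 had higher levels in TKO at p-values below 0.05 before adjustment in edgeR, against 2.02% and 4.06% of all genes tested, and their median log2 fold change was -0.33. Without TKO replicate 2, 1 was lower and 0 were higher, against 277 and 388 of the 20622 genes of the main test. *Chac1*, a glutathione-degrading enzyme, measured 1.20, 0.255 and 2.96 CPM in the Ctrl libraries and 0.161, 0.0453 and 0.403 CPM in the TKO libraries, with overlapping groups. *Trib3*, a pseudokinase, measured 5.10, 2.52 and 4.26 CPM in the Ctrl libraries and 2.19, 1.87 and 2.47 CPM in the TKO libraries, and *Phgdh*, which starts serine synthesis, had a log2 fold change of -0.36. *Slc7a11*, the cystine transporter, measured 31.9, 50.9 and 56.0 CPM in the Ctrl libraries and 131.2, 109.9 and 37.3 CPM in the TKO libraries, with overlapping groups.

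Of the 8 basal markers 4 had positive and 4 negative log2 fold changes. *Krt15*, a keratin gene and the one among them with an unadjusted p-value under 0.05, measured 2716, 2579 and 2089 CPM in the Ctrl libraries and 900.8, 792.0 and 1573 CPM in the TKO libraries, with a log2 fold change of -1.18 (adjusted p = 0.185 by edgeR and 0.00066 by DESeq2). Of 5 Merkel cell markers 4 were tested and all 4 had each TKO library below the lowest Ctrl library, against 5.11% of all genes tested, led by *Krt8* at 3.61, 4.01 and 3.07 CPM in Ctrl and 1.10, 0.625 and 1.09 CPM in TKO.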
